A study of Mus musculus with 4 samples.

Results

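The CCN family comprises small secreted proteins of the matricellular class, which are deposited around cells and signal to them without building the matrix. Its 5 members with counts to describe were Cyr61, Ctgf, Nov, Wisp1 and Wisp2, chosen by name as 5 of the 18619 genes of the table. They were read in 1 library of single stromal cells from the small intestine of adult C57BL/6J mice, in which both floxed alleles of Lats1 and of Lats2 (Lats1 fl/fl Lats2 fl/fl) had been deleted by Pdgfrb-Cre-ERT2 after tamoxifen, 1 week before collection (LATS1/2 KO 1w). A tdTomato reporter carried by the same mice was switched on by the same Cre and was used to sort the cells. The sort aimed at cells in which the Pdgfrb promoter had driven the recombinase. Some contaminating immune and endothelial cells entered and were excluded by the authors after a first clustering. The muscle layer and serosa had been cut away before dissociation, and cells of male and female mice went into the same library. Of the 4 samples, the 2 WT libraries and the knockout library of 2 weeks were not analysed here. There was therefore no control group and no replicate, no p-value was computed, and each interval below is a 95% interval for counting error only.

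LATS1 and LATS2 are the kinases of the Hippo pathway that hold back the co-activators YAP and TAZ. YAP and TAZ bind DNA through TEAD factors, and Cyr61 and Ctgf are among their best known target genes in fibroblasts. Both are also immediate early genes, which means that they are transcribed within minutes of serum, stretch or the dissociation of a tissue without new protein synthesis. CCN proteins share a modular build of domains that bind insulin-like growth factors, bone morphogenetic proteins, heparan sulphate and integrins, and act on adhesion, wound repair and fibrosis. Wisp2 stands apart by lacking the carboxy-terminal module.

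In the annotation of mm10 (GENCODE M21) the members carry the newer CCN symbols. Cyr61 is Ccn1 (ENSMUSG00000028195, chr3:145646976-145649981, minus strand) and Ctgf is Ccn2 (ENSMUSG00000019997, chr10:24595442-24598683, plus strand). Nov is Ccn3 (ENSMUSG00000037362, chr15:54745702-54754039) and Wisp1 is Ccn4 (ENSMUSG00000005124, chr15:66891320-66923201), both on the plus strand of the same chromosome. Wisp2 is Ccn5 (ENSMUSG00000027656, chr2:163820861-163833146, plus strand). All 5 are protein coding. The remaining gene of the family, Wisp3 (Ccn6, ENSMUSG00000062074), was in the table with 5 UMIs in the whole library and is not described further.

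The promoter of Cyr61 is shown because Cyr61 was the most abundant member and was higher along both the immediate early gene and the YAP/TAZ axis described further on. The 250 bases before its start of transcription (RefSeq, GRCm38.p6, chr3:145649986-145650235, minus strand) are printed 5′ to 3′, with 3 short motifs in capitals. A RefSeq promoter was at hand for 1 of the 5 members.
Cyr61 promoter: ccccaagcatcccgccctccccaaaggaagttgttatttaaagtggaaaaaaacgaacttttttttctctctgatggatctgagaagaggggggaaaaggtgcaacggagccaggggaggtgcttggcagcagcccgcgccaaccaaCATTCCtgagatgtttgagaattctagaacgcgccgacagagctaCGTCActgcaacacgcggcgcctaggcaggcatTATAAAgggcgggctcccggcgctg
CATTCC is the TEAD core GGAATG on the opposite strand, at -103 to -98 from the start, and CGTCA is the core TGACG of the cyclic AMP response element on the opposite strand, at -58 to -54. TATAAA lies at -25 to -20. Among 32851 promoter windows of the same length, GGAATG was found on either strand in 12.6%, TGACG on either strand in 17.8% and TATAAA on the plus strand in 7.59%. The letters TGANTCA of the AP-1 site (in 6.75% of windows) and the CArG box bound by SRF (in 1.47%) had no match in this window. These matches describe letters and are no evidence of binding.

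The library held 4108 cells and 46054627 UMIs, with 1965 to 35727 UMIs per cell (median 10726). Pdgfrb, the gene that defines the sort, was measured at 532.6 CPM (UMIs scaled to a total of 1000000 over the pooled cells), and each of the 4108 cells had a UMI of it before thinning. Whether cells had been chosen on this gene before deposit was not tested. Because the kit counts the 3′ end of each transcript once, CPM can be set side by side between genes without a correction for length. Lats1 (14.2 CPM) and Lats2 (53.5 CPM) were still counted, but 3′ tags may lie outside the deleted parts and do not check the deletion. Markers of cells outside the sort were low. The authors had excluded immune and endothelial cells before deposit, so these levels do not check the sort. The 4 immune markers summed to 22.6 CPM (7.97 to 54.8 over the clusters, none at 0), the 3 endothelial markers to 0.912 CPM with Pecam1 at 0 (0 to 8.8), the 3 epithelial markers to 0.0869 CPM with Krt8 and Vil1 at 0 (0 to 0.8), and the 3 glial markers to 3.65 CPM (1.15 to 9.74). The level of Y-linked genes in the 2004 cells with 5 or more UMIs of Xist bounded free RNA as an average over cells. Free RNA could supply up to 8.64% of a gene's mean level to the average cell. This amounts to 31.7 CPM of Cyr61, 5.61 of Ctgf, 0.36 of Nov, 0.925 of Wisp1 and 0.927 of Wisp2. The bound was not computed for single classes or for shallow cells.

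Clustering without the CCN members, the immediate early genes, the YAP/TAZ targets, Vegfc and sex-linked genes gave 10 clusters. Clusters 1, 2, 4, 5 and 6 (1072, 704, 547, 367 and 335 cells) did not meet the naming rule and stayed unnamed. Adamdec1, a marker of villus fibroblasts, reached 4113 to 6410 CPM in each of them but was counted as a marker in none. Other genes of that marker list did not set them apart from cluster 3. Shisa3 was 20.1 to 110.6 CPM in them and 124.8 CPM in cluster 3. Serpina3n was 34.9 to 256.9 and 234.9 CPM, and Fgf7 2.08 to 37.8 and 65.1 CPM. Together the unnamed clusters hold the 3025 unnamed cells. Cluster 3 (688 cells) was FB4-like, after markers of submucosal fibroblasts such as Grem1 and Ackr4, and cluster 7 (205 cells) was FB5-like, after markers of subepithelial fibroblasts such as Bmp5, Bmp7 and Wif1. Foxl1, also on that list, was 12.4 CPM in cluster 7. It was higher in clusters 8 (25.2 CPM), 6 (22.4), 10 (17.2) and 5 (13.2). Cluster 8 (76 cells) was like smooth muscle cells (SMC-like) and cluster 9 (69 cells) like the mural cells that wrap vessels (MC-like). The SMC-like cluster also carried Adamdec1 at 4237 CPM, and the MC-like cluster had the smooth muscle genes Myh11 (936.1 CPM) and Des (835.8 CPM). Cluster 10 (45 cells) was vFB3-like, after a small class of villus fibroblasts with Mmp10 and Itga8.

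The members differed widely in level. Over the whole library Cyr61 gave 16875 UMIs (366.4 CPM, interval 360.9 to 372.0), Ctgf 2991 (64.9, 62.6 to 67.3), Wisp2 494 (10.7, 9.8 to 11.7), Wisp1 493 (10.7, 9.78 to 11.7) and Nov 192 (4.17, 3.6 to 4.8). Over all cells, each had its highest level in a different cluster. Cyr61 peaked in unnamed cluster 1, Ctgf in MC-like cells, Nov in SMC-like cells, Wisp1 in FB5-like cells and Wisp2 in FB4-like cells. For Cyr61 this depended on which cells were taken, as in cells with Xist but no Y-linked UMIs the MC-like level of 713.4 CPM (609.6 to 829.8) was above that of cluster 1 at 601.8 (584.4 to 619.7), with overlapping intervals. In the plot of levels by cluster, Cyr61 and Ctgf were present in every cluster, whereas Nov, Wisp1 and Wisp2 each spanned from a few UMIs or none to a level well above the free RNA bound.

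**Figure D1:**
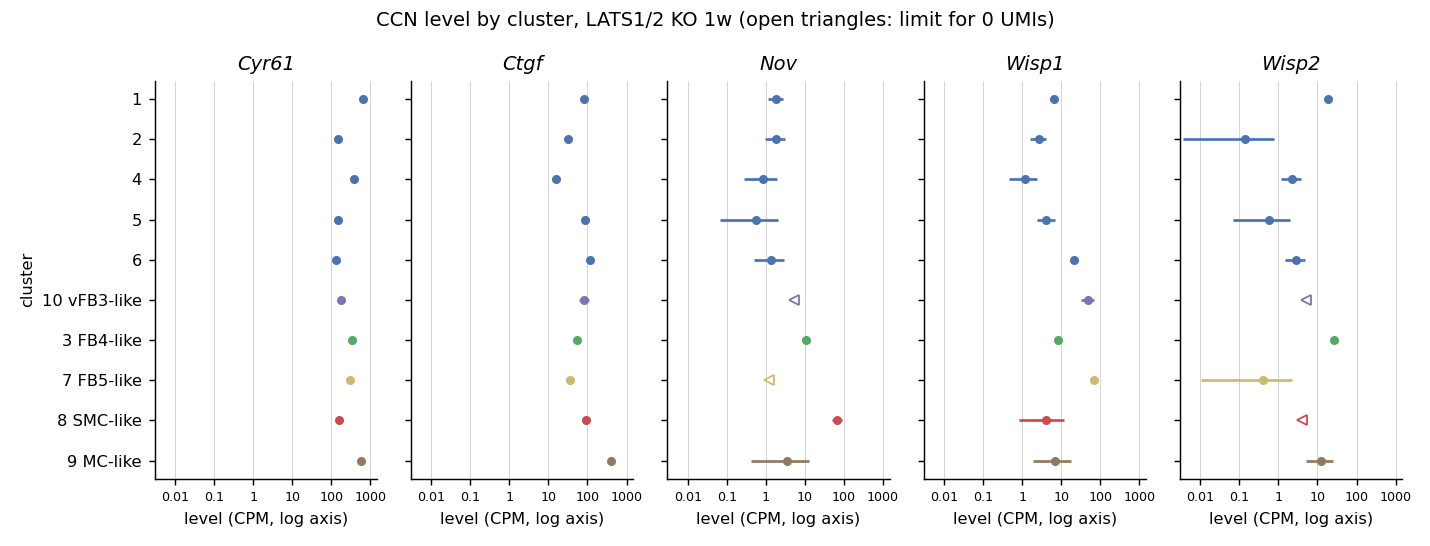
Level of each CCN member (CPM, log axis) in the 10 clusters, with points for the pooled level of a cluster, bars for the exact 95% Poisson interval and open triangles for the limit that 0 UMIs allow. Cyr61 lies between 130.4 and 668.7 CPM in all clusters, while Nov, Wisp1 and Wisp2 each stand out in 1 or 2 clusters.

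Cyr61, which binds integrins and promotes adhesion and the growth of vessels, was high in cluster 1 at 668.7 CPM (654.3 to 683.3) and in the MC-like cluster at 571.8 (511.4 to 637.5). It followed in cluster 4 at 388.0 CPM, in FB4-like cells at 337.1 and in FB5-like cells at 304.5. The other clusters formed a low group, with levels of 178.9 CPM (vFB3-like), 160.7 (SMC-like), 154.1 (cluster 5), 153.1 (cluster 2) and 130.4 (cluster 6). Within this order each step down to FB5-like cells had a ratio whose interval lay above 1, the smallest being 1.11 (1.02 to 1.2) between FB4-like and FB5-like cells. These steps did not all hold in subsets of cells. In cells with Y-linked UMIs but no Xist the FB4-like level (267.0 CPM, 248.6 to 286.3) was below the FB5-like level (345.3, 308.0 to 385.8), and in cells with Xist but no Y-linked UMIs the level of cluster 4 (404.0, 374.9 to 434.8) was not above that of FB4-like cells (424.5, 405.8 to 443.8). FB5-like cells exceeded vFB3-like cells by 1.7 (1.39 to 2.11), the largest step in the order. From the vFB3-like through the SMC-like and cluster 5 to the cluster 2 level, neighbours were not separated by counting error, and cluster 2 exceeded cluster 6 by 1.17 (1.06 to 1.3). Among the classes the MC-like level was 3.56 times the SMC-like level (2.88 to 4.42). Cyr61 was also widespread, with a UMI in 53.3% of cells thinned to 5000 UMIs each and in 67.9% before thinning. In thinned cells the share ran from 26.7% of SMC-like to 79.2% of MC-like cells, against 76.1% in cluster 1.

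The 5 unnamed clusters therefore held both extremes of Cyr61. Cluster 1 was 5.13 times cluster 6 (4.71 to 5.59), 4.37 times cluster 2 (4.1 to 4.66) and 1.72 times cluster 4 (1.65 to 1.81). Cluster 1 contributed 48.6% of all Cyr61 UMIs and 26.6% of all UMIs of the library. Immediate early gene level did not follow the same order across these clusters. The 11 immediate early genes summed to 11883 CPM in cluster 4 and to 5007 CPM in cluster 1, while the YAP/TAZ targets Amotl2, Ajuba and Lats2 summed to 126.1 CPM in cluster 4 and to 346.2 CPM in cluster 1. Cluster 6 had 596.7 CPM of immediate early genes and 254.1 CPM of the 3 targets.

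Ctgf, a matrix-bound factor known from fibrosis and as a partner of TGF-beta, was highest in the MC-like cells. Their level was 411.7 CPM (360.7 to 468.0), which was 3.57 times that of the next cluster (3.05 to 4.18) and 11.4 times the lowest class, FB5-like cells at 36 CPM (8.93 to 14.7). In cells with Y-linked UMIs but no Xist, MC-like cells had 278.2 CPM (208.4 to 363.8) and SMC-like cells 215.3 (152.3 to 295.5). There the ratio to FB5-like cells was 6.61 (4.28 to 10.3), against 16.3 (11.6 to 23.3) in cells with Xist but no Y-linked UMIs. Over all cells cluster 6 came next with 115.2 CPM, followed by SMC-like cells (91.7), cluster 5 (85.1), vFB3-like cells (82.6) and cluster 1 (80.5). In the vFB3-like cluster 1 cell held 20 of the 48 Ctgf UMIs. From cluster 6 to cluster 1 no neighbouring pair was separated by its interval, although cluster 6 exceeded cluster 1 by 1.43 (1.28 to 1.59). FB4-like cells stood at 52.9 CPM, cluster 2 at 30.9 and cluster 4 at 15.5 (12.5 to 19). The order of the unnamed clusters was thus unlike that of Cyr61, since cluster 6 was lowest in Cyr61 and highest in Ctgf. Relative to cluster 4 its Ctgf level was 7.43 times (5.94 to 9.38) and its Cyr61 level 0.336 times (0.306 to 0.369). In thinned cells 16.3% had a Ctgf UMI, from 5.36% in cluster 4 to 58.3% in MC-like cells. The MC-like cluster was shallow, with a median of 6793 UMIs per cell and 21 of its 69 cells below 5000.

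Nov, a member that restrains proliferation in several cell types and binds integrins and Notch1, was highest in 2 classes. The SMC-like level was 67.8 CPM (50.4 to 89.1) from 51 UMIs and the FB4-like level 10.7 CPM (8.6 to 13.1) from 91 UMIs, a ratio of 6.35 (4.41 to 9.04). All other clusters had between 0 and 22 UMIs, at 3.52 CPM or less. FB5-like cells had 0 UMIs of 2498929, which allows up to 1.2 CPM, so that Nov was at least 56.4 times higher in SMC-like than in FB5-like cells, with 3 counts put in place of 0. Taking those 3 counts as measured, the counting interval of this ratio was 18.3 to 282.7, and the bound was 20.5 in cells with Y-linked UMIs but no Xist, 28.1 in cells of 8000 to 14000 UMIs and 29.4 in cells with Xist but no Y-linked UMIs. No UMI was found in vFB3-like cells either, where the limit was 5.16 CPM. Together SMC-like and FB4-like cells held 26.6% and 47.4% of Nov UMIs while contributing 1.63% and 18.5% of all UMIs. A single SMC-like cell with 10 Nov UMIs gave 19.6% of that cluster's count.

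Wisp1, which was found as a gene induced by Wnt1 and is known from bone and fibrotic tissue, was highest in FB5-like cells at 69.2 CPM (59.3 to 80.3, 173 UMIs). The vFB3-like level of 48.2 CPM (32 to 69.6, 28 UMIs) was next and not separated from it (ratio 1.44, 0.96 to 2.23). Cluster 6 followed at 21.7 CPM (17.5 to 26.6). In the remaining 7 clusters Wisp1 ranged from 1.18 CPM in cluster 4 to 8.33 CPM in FB4-like cells. The ratio of FB5-like to SMC-like cells was 17.4 (5.85 to 85.1), with 3 UMIs in the latter. In cells with Y-linked UMIs but no Xist the SMC-like cells had 0 Wisp1 UMIs. With 3 counts put in place of 0, the bound there was 4.36 (counting interval 1.43 to 21.7). The ratio was 5.98 (1.99 to 29.5) in cells of 8000 to 14000 UMIs. FB5-like cells made up 35.1% of Wisp1 UMIs against 5.43% of all UMIs. Among thinned cells 28.5% of FB5-like, 13.6% of vFB3-like and 2.46% of unnamed cells had a Wisp1 UMI.

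Wisp2, the short member, was largely a gene of 2 clusters. It reached 27.2 CPM (23.8 to 31, 232 UMIs) in FB4-like cells and 18.4 CPM (16.1 to 21, 226 UMIs) in cluster 1, a ratio of 1.48 (1.22 to 1.78). MC-like cells had 12.3 CPM from 7 UMIs, which was not separated from cluster 1. Elsewhere the level was 2.77 CPM or less, and SMC-like and vFB3-like cells had 0 UMIs, with limits of 3.99 and 5.16 CPM. With 3 counts put in place of 0, FB4-like cells were at least 6.83 times higher than SMC-like cells (counting interval 2.31 to 33.4), and this bound depended on which cells were taken, at 1.68 in cells with Y-linked UMIs but no Xist and 0.661 in cells of 8000 to 14000 UMIs. Clusters 1 and 2, both rich in Adamdec1, differed sharply, since cluster 2 had 1 Wisp2 UMI in 7046076. In thinned cells 5.92% of FB4-like and 5.55% of cluster 1 cells had a Wisp2 UMI.

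**Figure D2:**
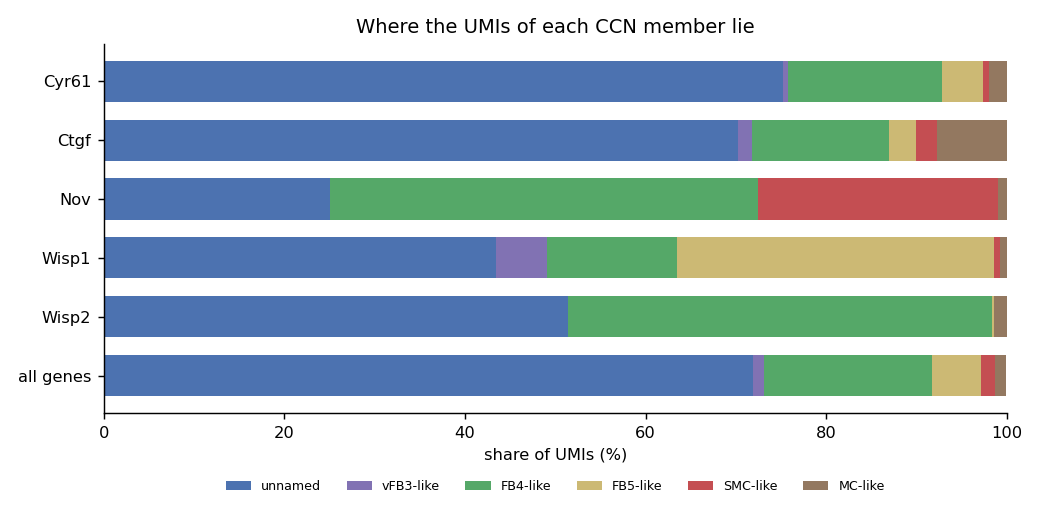
Share of the UMIs of each CCN member (%) that came from each class, with the 5 unnamed clusters pooled and all genes together in the last bar for comparison. Cyr61 and Ctgf follow the division of all UMIs more closely than Nov, of which SMC-like cells gave 26.6%, or Wisp1, of which FB5-like cells gave 35.1%.

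Counts of Cyr61 and Ctgf were spread unevenly over cells. Among thinned cells the tenth of all cells highest in Cyr61 held 47% of its UMIs, and the same number of cells held 78.8% of Ctgf UMIs. The variance of counts over cells was 4.13 times the mean for Cyr61, 3.08 times for Ctgf and 2.05 times for Wisp2, compared with 1.5 for Nov and 1.26 for Wisp1. For most pairs of members, the number of thinned cells with both was not separated from the product of their single shares. In unnamed cells Cyr61 and Ctgf were found together in 308 cells against 274.2 expected from the product of the shares, a ratio of 1.12 (1.01 to 1.25), and within cluster 1 alone the ratio was 1.08 (0.942 to 1.23). In FB4-like cells the ratio was 1.38 (1.01 to 1.82) for Cyr61 with Ctgf and 1.69 (1.17 to 2.35) for Cyr61 with Wisp2 (33 cells against 19.5). The intervals of the other pairs, 17 over these 2 populations in all, included 1. Without thinning, so that cells entered at unequal depth, pairs such as Ctgf with Wisp1 (1.86, 1.47 to 2.3, in unnamed and 2.71, 1.71 to 4.07, in FB4-like cells), Ctgf with Wisp2 (1.89, 1.23 to 2.77, in FB4-like cells) and Nov with Wisp2 (3.28, 1.98 to 5.08, in FB4-like cells) also lay above 1.

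The members were then set against the level of immediate early genes and of YAP/TAZ targets, among the 3025 unnamed cells and, as a second population, among FB4-like cells. For the first axis each cell was thinned to 5000 UMIs, the UMIs of 11 immediate early genes (Fos, Fosb, Jun, Junb, Egr1, Atf3, Ier2, Nr4a1, Zfp36, Dusp1 and Btg2) were summed, and the tertile of cells highest in the sum was compared with the lowest. For the second axis, cells with 2 or more UMIs of Amotl2, Ajuba and Lats2 were compared with cells that had 0. Lats2 was itself deleted in these mice, so an alternative left it out. In unnamed cells it gave ratios of 2.11 (Cyr61), 1.65 (Ctgf), 1.38 (Nov), 1.78 (Wisp1) and 6.83 (Wisp2). With Lats2 they were 2.11, 1.95, 1.22, 2.17 and 8.6. No CCN member took part in setting either axis. Tertiles were cut inside each population or cluster, so the contrast in immediate early genes differed. Their sum was 372.7 and 11594 CPM in the lowest and highest tertile of unnamed cells and 1592 and 13806 CPM in FB4-like cells. It was 488.5 and 11033 CPM in cluster 1, 6205 and 18638 in cluster 4 and 184.6 and 1423 in cluster 6. Ratios of different populations or clusters were thus taken over unlike spans. The axes were close to independent of each other in unnamed cells, as the 3 targets summed to 215.6 CPM in the highest and 205.1 CPM in the lowest immediate early gene tertile. They were less so in FB4-like cells, where the targets summed to 167.6 and 212.3 CPM. Depth did differ along the second axis, with medians of 11750 UMIs in cells with 2 or more target UMIs and 9941 UMIs in cells with 0. Both cuts divide continuous ranges, and 117 unnamed cells lay within 10% of the upper tertile boundary and 130 within 10% of the lower.

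Cyr61 was higher in the tertile of cells with most immediate early gene UMIs in both populations. In unnamed cells it measured 707.7 CPM in the highest and 97.4 CPM in the lowest tertile, a ratio of 7.27 (6.83 to 7.73), and along the YAP/TAZ axis 544.9 against 257.9 CPM, a ratio of 2.11 (2.02 to 2.21). Of 8346 genes with at least 10 CPM over both groups together, 3.26% were at least 2-fold higher and 0.551% at least 2-fold lower in the highest immediate early gene tertile, and Cyr61 ranked 50th by ratio. Along the YAP/TAZ axis 0.861% of 8364 genes were at least 2-fold higher and 0.287% at least 2-fold lower, and Cyr61 ranked 61st. Of the members, 2 of 5 (Cyr61 and Ctgf) reached this pooled level in these comparisons, and of these Cyr61 passed 2-fold on both axes. The second call was lost with up to 5% mitochondrial UMIs (1.92), in cells with Xist but no Y-linked UMIs (1.84) and for 1 or more target UMIs (1.86). Inside single clusters the target ratio of Cyr61 was 1.22 (1.15 to 1.3) in cluster 1, 2.13 (1.75 to 2.58) in cluster 2, 1.89 (1.7 to 2.09) in cluster 4, 1.48 (1.14 to 1.9) in cluster 5, 1.26 (1.02 to 1.55) in cluster 6 and 1.16 (0.968 to 1.39) in FB5-like cells. In FB4-like cells the ratios were 2.24 (2.02 to 2.5, 394.6 against 175.8 CPM) by immediate early genes and 3.02 (2.77 to 3.31, 587.9 against 194.5 CPM) by YAP/TAZ targets. The first was 4.34 (3.72 to 5.09) and the second 2.67 (2.4 to 2.97) in the 364 FB4-like cells with Xist but no Y-linked UMIs, so the order of the axes was not fixed. The first ratio fell below 2 in the 243 cells with Y-linked UMIs but no Xist (1.73, 1.42 to 2.13), with up to 5% mitochondrial UMIs (1.76) and with cells divided at the median (1.86). Over all FB4-like cells, 3 members reached 10 CPM on the first axis, where 2.64% of 8106 genes were at least 2-fold higher and 0.333% at least 2-fold lower, and Cyr61 was higher and Wisp2 lower. On the second axis 4 members reached it, 1.76% of 8086 genes were at least 2-fold higher and 0.643% at least 2-fold lower, and 3 members (Cyr61, Nov and Wisp2) were higher. Nov and Wisp2 reached the pooled 10 CPM through the group in which they were higher, so their calls add nothing to their ratios. The median gene had a ratio of 1.01 to 1.03 in the 4 comparisons.

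**Figure D3:**
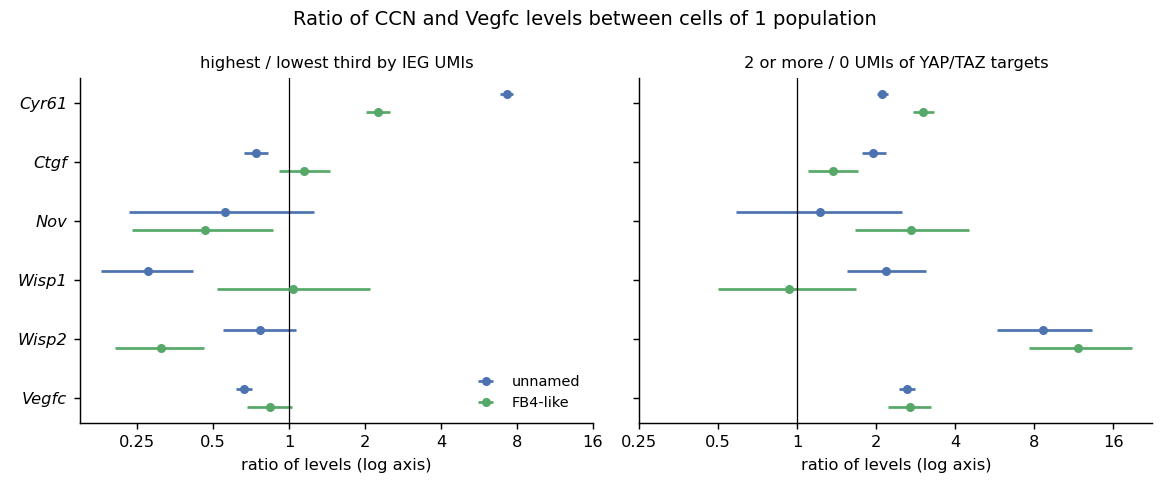
Ratio of levels (log axis) of each CCN member and Vegfc between the highest and the lowest tertile of cells by immediate early gene (IEG) UMIs (left) and between cells with 2 or more and 0 UMIs of Amotl2, Ajuba and Lats2 (right), in unnamed and in FB4-like cells. Points are pooled ratios and bars exact 95% intervals, and the highest points are Cyr61 in unnamed cells on the left (7.27) and Wisp2 on the right (8.6 and 11.7).

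Cyr61 was higher along each axis at either level of the other. Unnamed cells in the highest immediate early gene tertile with 2 or more target UMIs had 1015 CPM (979.1 to 1053), those in the same tertile with 0 target UMIs 455.7 CPM (436.5 to 475.6), those in the lowest tertile with 2 or more 143.0 CPM (130.2 to 156.8) and those low in both 78.9 CPM (71.6 to 86.6). None of these 4 intervals overlapped. The ratio along the immediate early gene axis was 7.1 (6.43 to 7.85) in cells with 2 or more target UMIs and 5.78 (5.21 to 6.42) in cells with 0, so the first was 1.23 times the second (1.07 to 1.42). By quintile of immediate early genes, Cyr61 climbed in steps from 73.5 to 455.7 CPM in cells with 0 target UMIs, from 79.9 to 829.8 CPM in cells with 1 and from 132.2 to 1135 CPM in cells with 2 or more. In FB4-like cells the 4 groups had 767.2, 238.1, 222.3 and 121.1 CPM, and the middle pair overlapped in their intervals.

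**Figure D4:**
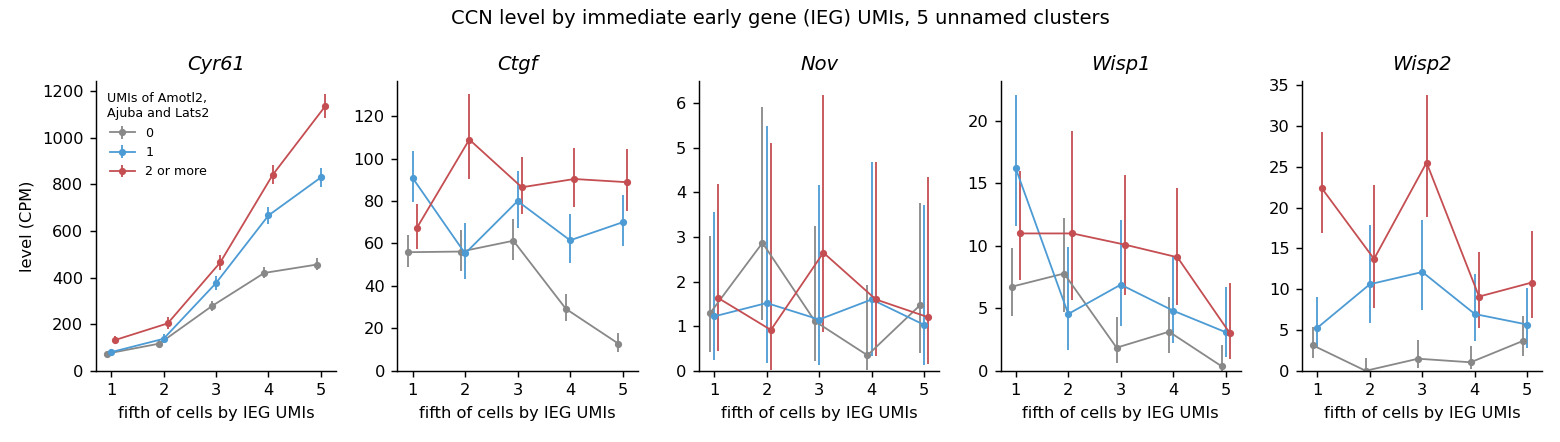
Level (CPM) of each CCN member in the unnamed cells by quintile of immediate early gene (IEG) UMIs, from 1 (lowest) to 5 (highest), separately for cells with 0, 1 and 2 or more UMIs of Amotl2, Ajuba and Lats2, with exact 95% intervals. Cyr61 climbs along all 3 lines to 455.7, 829.8 and 1135 CPM, while Ctgf goes down to 12.8 CPM in cells with 0 target UMIs and ends at 88.9 CPM in cells with 2 or more.

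Ctgf had another pattern. Its pooled ratio in unnamed cells was 0.736 (0.66 to 0.821) by immediate early genes, from 50.8 against 68.9 CPM, and 1.95 (1.76 to 2.17) by YAP/TAZ targets, from 85.2 against 43.6 CPM. The pooled direction did not hold within clusters. Inside cluster 1 the immediate early gene ratio was 1.49 (1.27 to 1.75), inside cluster 5 it was 2.03 (1.54 to 2.7) and inside cluster 6 it was 1.27 (1.04 to 1.54), whereas cluster 2 (0.755, 0.535 to 1.06) and cluster 4 (0.834, 0.513 to 1.34) were not separated from 1. Cluster 4, with the highest immediate early gene sum, had the lowest Ctgf, and cluster 6, with the lowest sum, the highest Ctgf of the unnamed clusters. With clusters 5 and 6 left out, the pooled ratio was 0.932 (0.811 to 1.07). The Cyr61 ratio by contrast was above 1 in each of these clusters, at 6.64 (6.16 to 7.17) in cluster 1, 4.89 in cluster 2, 1.36 in cluster 4, 7.88 (6 to 10.5) in cluster 5 and 2.64 in cluster 6.

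**Figure D5:**
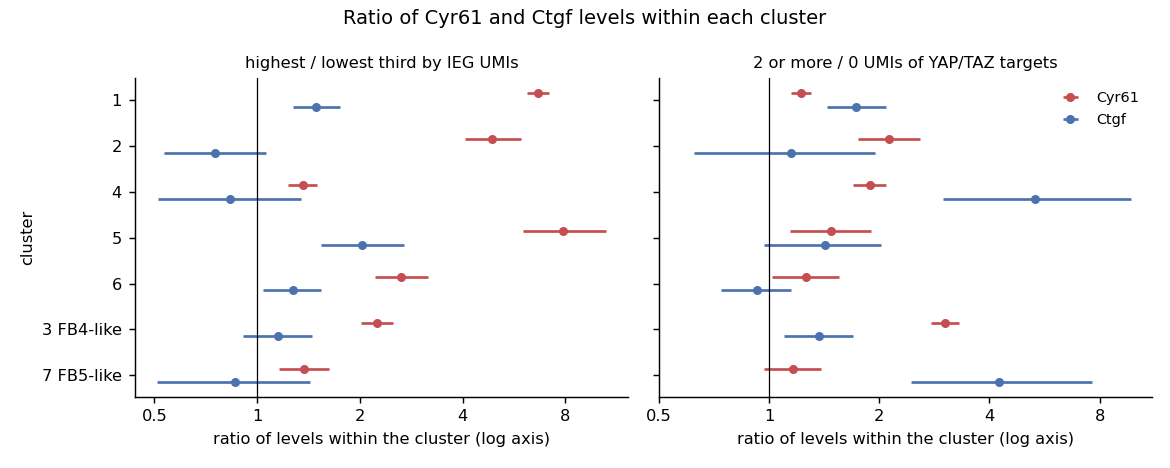
Ratio of the Cyr61 and Ctgf levels (log axis) by immediate early gene (IEG) tertile (left) and by YAP/TAZ target UMIs (right), computed inside each of 7 clusters with exact 95% intervals. On the left Cyr61 lies above 1 in all 7 clusters, from 1.36 to 7.88, and Ctgf lies above 1 with its interval in clusters 1, 5 and 6.

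Along the YAP/TAZ axis the clusters also differed for Ctgf. The ratio was 5.33 (2.98 to 9.72) in cluster 4, 4.24 (2.45 to 7.64) in FB5-like cells and 1.73 (1.44 to 2.09) in cluster 1, but 0.925 (0.741 to 1.15) in cluster 6, which had the highest Ctgf level of the unnamed clusters. Clusters 2 (1.15, 0.625 to 1.95) and 5 (1.42, 0.971 to 2.02) were not separated from 1. In the pooled unnamed cells the YAP/TAZ ratio was 4.26 (3.32 to 5.49) in the highest immediate early gene tertile and 1.27 (1.07 to 1.51) in the lowest, 3.36 times apart (2.49 to 4.52). The levels behind it were 81.8, 19.2, 72.8 and 57.4 CPM in cells high in both, high in immediate early genes only, high in targets only and low in both. Thus the group with high immediate early genes and 0 target UMIs was the low one. Cluster 4 combines a high immediate early gene sum, a low target sum and the lowest Ctgf level, and the part of cluster membership in this pattern was not tested. In FB4-like cells the ratios were 1.15 (0.909 to 1.45) and 1.37 (1.1 to 1.7), but 1 cell with 59 Ctgf UMIs supplied 13.1% of the cluster's count, and without it they were 1.99 (1.51 to 2.64) and 1.98 (1.56 to 2.52). In FB4-like cells of 8000 to 14000 UMIs they were 3.34 (2.05 to 5.65) and 3.81 (2.56 to 5.74), beside 2.38 (2.03 to 2.8) and 2.79 (2.45 to 3.17) for Cyr61, and the target ratio of Ctgf was 2.82 (2.22 to 3.57) after thinning to 2000 UMIs. The target ratio of Ctgf was instead 1.21 (0.963 to 1.52) with up to 5% mitochondrial UMIs and 0.94 (0.727 to 1.21) in cells with Xist but no Y-linked UMIs, so no direction is given for FB4-like cells.

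The 3 rarer members did not share the pattern of Cyr61 along the immediate early gene axis. Wisp1 in unnamed cells was 2.78 CPM in the highest and 10.1 CPM in the lowest tertile, a ratio of 0.276 (0.179 to 0.415). No such difference was detectable inside single clusters, as within cluster 1 the ratio was 0.746 (0.392 to 1.39) and within cluster 6, which held 94 of the 214 Wisp1 UMIs of unnamed cells, it was 1.08 (0.664 to 1.73). In FB5-like cells, where Wisp1 was highest, the ratio was 1.03 (0.72 to 1.47) by immediate early genes and 0.58 (0.363 to 0.902) by YAP/TAZ targets, against 2.17 (1.54 to 3.09) by targets in the pooled unnamed cells. Inside the unnamed clusters the target ratio of Wisp1 was not separated from 1, at 1.62 (0.853 to 3.29) in cluster 1 and 1.4 (0.809 to 2.46) in cluster 6. FB4-like cells gave 1.04 (0.516 to 2.1) and 0.93 (0.5 to 1.68) from 18 to 33 UMIs a group. The second was 0.402 (0.157 to 0.919) in cells with Xist but no Y-linked UMIs and 2.88 (1.02 to 8.39) in cells with Y-linked UMIs but no Xist. Nov had too few UMIs in unnamed cells for a direction (0.557, 0.233 to 1.25, from 10 and 20 UMIs). In FB4-like cells it was 5.69 against 12.3 CPM by immediate early genes (0.463, 0.239 to 0.862), which was not separated from 1 with scaled log values (0.89, 0.493 to 1.6), in cells with Xist but no Y-linked UMIs (0.792, 0.39 to 1.59) or in the converse set (0.378, 0.036 to 2.31), and 19.5 against 7.18 CPM by targets (2.71, 1.66 to 4.5). The target ratio of Nov was 1.66 (0.724 to 3.69) in cells of 8000 to 14000 UMIs, 1.64 (0.92 to 2.95) in cells with Xist but no Y-linked UMIs and 1.91 (0.948 to 3.57) after thinning to 2000 UMIs. It was 7.48 (2.31 to 31.5) in cells with Y-linked UMIs but no Xist. The immediate early gene ratio of Nov was 0.159 (0.0301 to 0.54) in cells of 8000 to 14000 UMIs.

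Wisp2 had the highest ratio of the members along the YAP/TAZ axis at the depth of 5000 UMIs, although in unnamed cells thinned to 2000 UMIs it stood at 2.79 (1.9 to 4.02) and Wisp1 at 3.48 (2.41 to 4.96). Its level in FB4-like cells was 72.1 CPM (61.8 to 83.6) with 2 or more target UMIs and 6.16 CPM (3.94 to 9.16) with 0, a ratio of 11.7 (7.62 to 18.8). Along the immediate early gene axis of FB4-like cells it was 12.1 against 39.1 CPM, a ratio of 0.31 (0.204 to 0.459). The 4 combined groups of FB4-like cells ran from 82.4 CPM (63.3 to 105.4) with high targets and low immediate early genes, through 45 with both high and 14.3 with both low, to 1.52 CPM from 2 UMIs with low targets and high immediate early genes. Unnamed cells gave a YAP/TAZ ratio of 8.6 (5.76 to 13.3, 17.1 against 1.98 CPM), and within cluster 1 it was 2.88 (1.86 to 4.65) by targets and 0.589 (0.416 to 0.827) by immediate early genes. By immediate early genes the pooled unnamed cells were not separated from 1 (0.763, 0.545 to 1.06) but were with cells divided at the median (0.647, 0.497 to 0.838) and with 7 immediate early genes (0.699, 0.504 to 0.964), whereas cells of 8000 to 14000 UMIs gave 1.35 (0.847 to 2.16) and cluster 6 gave 4.81 (1.15 to 28.1, from 8 and 3 UMIs). The ratio inside cluster 1, which held 226 of the 254 Wisp2 UMIs of unnamed cells, was thus smaller than the pooled one.

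Cell depth moved with Wisp2, and its part in the ratio was not fully tested. In FB4-like cells Wisp2 was 8.72 CPM from 8000 to 14000 UMIs per cell and 56.8 CPM above 14000. Below 8000 UMIs the 58 cells had 0 UMIs of Wisp2 and of Nov, with an upper interval bound of 10.2 CPM for each, so that neither was separated there from the band above. Over the same bands Cyr61 went from 143.4 through 255.5 to 475.6 CPM and Nov was 8.1 and 15.6 CPM in the upper bands. Within the band of 8000 to 14000 UMIs the YAP/TAZ ratio of Wisp2 was 40 (10.3 to 343.6) in FB4-like cells and 5.74 (3.53 to 9.65) in unnamed cells, so it was not smaller in FB4-like cells of like depth, whereas in unnamed cells it was smaller, and smaller again after thinning to 2000 UMIs (2.79). The level in unnamed cells also differed by band for Ctgf, at 40.1, 59.2 and 87.2 CPM, and for Wisp1, at 2.4, 3.82 and 17 CPM.

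Vegfc, the lymphatic growth factor on which the study centred, shows how the members compare with another secreted product of the same cells. Against 120.3 CPM in the library, its level reached 387.0 CPM among vFB3-like cells, with 272.2 CPM for cluster 6 and 211.9 CPM for cluster 1. The ratios in unnamed cells were 0.66 (0.613 to 0.71) by immediate early genes and 2.62 (2.44 to 2.82) by YAP/TAZ targets, close in direction to Ctgf and unlike Cyr61 on the first axis. Within cluster 1 the Vegfc ratios were 0.955 (0.868 to 1.05) and 1.34 (1.21 to 1.49), so that there too the pooled values were farther from 1 than those inside the cluster.

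Genes around the CCN family were read on the same axes by counts past 2-fold. In the 4 comparisons 0.861% to 3.26% of all genes were at least 2-fold higher and 0.287% to 0.643% at least 2-fold lower. A count of 0 or 1 in lists this short cannot be told apart from such shares. Of 11 receptors and co-receptors of CCN proteins (integrin subunits, LRP1, LRP6, Sdc4 and Notch1) 7 reached 10 CPM in each of the 4 comparisons and none passed 2-fold in either direction. The beta 1 integrin Itgb1 was the most abundant integrin subunit among them, at 496.7 and 575.9 CPM in the highest and lowest immediate early gene tertile of unnamed cells, and the endocytic receptor Lrp1 stood at 495.8 and 332.7 CPM. Of 22 other YAP/TAZ targets, 16 were measured in unnamed cells, and 3 were at least 2-fold higher along the target axis. Amotl2 and Lats2 were so by construction and the third was Crim1, a bone morphogenetic protein binder, at 2.67 (2.43 to 2.93). In FB4-like cells 4 of 13 were higher, with F3, the initiator of coagulation, at 2.6 and Crim1 at 4 besides the 2 that set the axis. By immediate early genes 1 of 16 was higher in unnamed cells, the stress gene Gadd45a at 2.81 (2.34 to 3.39), and 0 of 13 in FB4-like cells.

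Some contractile genes regulated by SRF were lower along the immediate early gene axis of unnamed cells, on which Cyr61 was higher. Of 7 measured, 3 were at least 2-fold lower in the highest immediate early gene tertile, namely Acta2 at 0.347, Myl9 at 0.45 and Tagln at 0.494. Of all genes 0.551% were so. The same 3 were higher with YAP/TAZ targets in FB4-like cells, at 4.1, 2.45 and 5.02, where 1.76% of all genes were at least 2-fold higher. Along the YAP/TAZ axis of unnamed cells they were at 1.15 (Acta2), 1.34 (Myl9) and 1.62 (Tagln). All 3 are also smooth muscle genes. Among genes of the TGF-beta pathway in FB4-like cells, the ligand Tgfb1 (31.7 against 11.6 CPM, ratio 2.74, 1.81 to 4.24) and the inhibitory Smad7 (82.9 against 39.8 CPM, ratio 2.08, 1.65 to 2.64) were at least 2-fold higher by immediate early genes. Of 9 Wnt targets 2 were measured, and each passed 2-fold in 1 of the 4 comparisons with an interval that reached below 2. The Axin2 ratio by immediate early genes was 2.03 (1.65 to 2.51) in unnamed and 1.09 (0.679 to 1.76) in FB4-like cells, and the Nkd1 ratio by YAP/TAZ targets was 1.91 (1.67 to 2.18) in unnamed and 2.19 (1.64 to 2.93) in FB4-like cells.

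The genes most like each member were sought over 21 groups of at least 20 cells from all 10 clusters, set by cluster and immediate early gene tertile, among 5776 genes with at least 1000 UMIs. These correlations are descriptions over groups that share 1 library, and the tertiles themselves were set by genes of the list. Cyr61 was most like Gadd45b (r = 0.89), Mcl1 (0.86), Btg2, Fosb and Ier5 (0.82 each), of which Btg2 and Fosb helped to set the tertiles. Ctgf was most like Ehd3 (0.81), Stbd1 (0.79), Hnrnpa1, Luzp1 and Lgalsl (0.78 each), and Nov most like Fnbp1, Arl3, Ccdc107, Maf1 and H2afy (0.84 to 0.81). Wisp1 was most like Ranbp1, Hacd4, Rnaset2a, Psme2 and Wnt5a (0.89 to 0.87). Wisp2 was most like Sema3d (0.88), Cpz and Timp2 (0.87 each), Gstm2 (0.82) and Nkain4 (0.81). The members were not alike among themselves. Their 10 pairwise values lay between -0.19 for Nov with Wisp1 and 0.26 for Cyr61 with Ctgf, and the sum of immediate early genes had r = 0.81 with Cyr61 and 0.08 with Ctgf.

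Sex and animal cannot be told apart in the pooled library. Comparing cells that had Xist but no Y-linked UMIs with cells that had Y-linked UMIs but no Xist, Cyr61 was 424.5 against 267.0 CPM in FB4-like cells, 601.8 against 775.3 in cluster 1 and 380.4 against 388.4 in all unnamed cells. Ctgf in the small classes differed more, at 598.7 against 278.2 CPM in MC-like cells (34 and 21 cells) and 63.8 against 215.3 CPM in SMC-like cells (48 and 17 cells). Larger groups also differed in Ctgf without overlap, at 69.3 against 32.3 CPM in FB4-like cells, 127.1 against 66.2 in cluster 5 and 64.8 against 106.8 in cluster 1. It was close in cluster 6 (117.0 against 121.5) and in all unnamed cells (62.9 against 67.3). Among cells with Y-linked UMIs, the intervals of the MC-like (208.4 to 363.8) and SMC-like (152.3 to 295.5) Ctgf levels overlapped. Wisp1 in FB5-like cells (72.6 against 74.1 CPM), Nov in SMC-like cells (70.4 against 68) and Wisp2 in FB4-like cells (29.4 against 28.5) were close, with intervals that overlapped. In unnamed cells the intervals did not overlap for Wisp1 (9.01 against 4 CPM) or Wisp2 (10.7 against 5.08 CPM), and Wisp1 in cluster 6 was 29.4 against 11.8 CPM. The unnamed cells of these sets differed in their clusters, since cluster 1 held 638 cells of the first and 332 of the second, and cluster 4 held 161 and 269. Within cluster 1 the intervals overlapped for Wisp1 (6.95 against 6.2 CPM) and for Wisp2 (21.9, 18.7 to 25.6, against 14.6, 10.9 to 19).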

How the data were processed

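Reads of sorted cells (10x 3′ v3) were aligned by the authors to mm10 with Cell Ranger 3.0.2 and processed with Seurat (3.0.1 in the submitters' processing notes, another release in the study's methods). The authors deposited each value on a natural log scale, after dividing by the cell total, scaling to 10000 and adding 1, and had removed immune and endothelial cells. UMI counts were read back from these values, since all nonzero values came out whole (tolerance 0.001). Cells were clustered in Seurat 5.3.0 (R 4.3.3) with 1969 of 2000 variable genes, 30 components and resolution 0.5, because no cell annotation was used here. A marker counted with UMIs in 10% of cells, a level 2 times the median of the other clusters and 0.25 of the highest cluster, and 3 counted markers named a cluster. This rule was set after cluster levels were seen. No doublets were removed, as Scrublet (scanpy 1.11.5) called 8 cells (0.195%). Levels have exact Poisson intervals, ratios conditional binomial and shares Clopper-Pearson intervals (scipy 1.17.1), ratios of ratios a Wald interval, and 0 counts a limit of 3 counts. The ratio scripts were tested on data simulated with Poisson counts. Real counts of Cyr61 and Ctgf varied more between cells (variance 4.13 and 3.08 times the mean), so this test checks the computation only. Genes named are the members, genes of the lists that passed 2-fold or were needed as examples, and the 5 most like each member by correlation of log2(CPM + 10). Members and lists were chosen with earlier results of these data known. Not every gene of the TGF-beta list is reported here.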

Additional observations from a re-analysis of the deposited data

How the results depend on the processing

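No paired analysis was possible because only 1 library was analysed. Over 189 alternatives of the class ratios and of the ratios in unnamed cells, 154 stayed within the counting interval, 34 moved out of it and 1 reversed. The reversal was Wisp2 in FB4-like over SMC-like cells of 8000 to 14000 UMIs (0.661), a bound set by 22 SMC-like cells with 0 UMIs. Taking cells that had Y-linked UMIs but lacked Xist (Y-linked cells), the class ratios were 4.48 for Cyr61 and 6.61 for Ctgf. For Wisp1 and Wisp2 the SMC-like cells had 0 UMIs there, and bounds with 3 counts in place of 0 were 4.36 and 1.68. With Xist only (Xist cells) Ctgf gave 16.3. By immediate early genes in unnamed cells, Cyr61 was 5.43 with up to 5% mitochondrial UMIs, 8.47 in Y-linked cells, 5.29 without clusters 5 and 6 (chosen after seeing the data), 7.82 with scaled log values and 4.59 with cells divided at the median. On that axis Ctgf was 0.872 in Xist cells, 0.591 in Y-linked cells and 0.932 without clusters 5 and 6, Nov 1.39 in Xist cells, Wisp1 0.425 in Xist cells, 0.458 without clusters 5 and 6 and 0.433 divided at the median, and Wisp2 1.35 at 8000 to 14000 UMIs and 0.529 without clusters 5 and 6. By YAP/TAZ targets, Cyr61 was 1.92 with up to 5% mitochondrial UMIs, 1.84 in Xist cells, 1.86 for 1 or more UMIs and 2 after thinning to 2000. Ctgf was 2.22 in Xist cells, 1.59 in Y-linked cells, 2.77 without clusters 5 and 6, 1.65 without Lats2 and 1.6 thinned to 2000. Wisp1 was 1.52 in Xist cells, 3.8 in Y-linked cells and 3.48 thinned to 2000, and Wisp2 5.74 at 8000 to 14000 UMIs, 15.4 in Y-linked cells and 2.79 thinned to 2000. In FB4-like cells and for pairs of members, 135 of 175 alternatives stayed, 39 moved and 1 reversed, the Ctgf ratio by targets in Xist cells (0.94). The cause of these shifts was not tested. Class ratios were not run where a class kept fewer than 10 cells, namely SMC-like cells with up to 5% mitochondrial UMIs (8 cells) and MC-like cells at 8000 to 14000 UMIs (8 cells).

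With 1 library, no difference was set against the spread between animals. Nov, Wisp1 and Wisp2 had 192 to 494 UMIs in all, so differences between small classes or within clusters were mostly not detectable at this depth. The unnamed cells pool 5 clusters that differ in members other than Nov, for which no pair of these clusters was separated.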
